A study of Sus scrofa with 4 samples.

Results

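The cells described here are matrix cells of the pig meniscus that carried at least 3 UMIs of WIF1, ENPP2 and VIT together, where a UMI is 1 counted RNA molecule. They were 211 of 27782 barcodes, of which 27727 held the required 200 or more genes. The sum of WIF1, ENPP2 and VIT is called the gate below. A member also had COL2A1 under 0.5% of its UMIs and at most 2 UMIs over CILP, CILP2 and OMD. It had at most 1 UMI over the endothelial genes PECAM1, PLVAP and VWF, at most 1 over the mural genes ACTA2, MYH11 and RGS5, and at most 2 over the macrophage genes C1QA, C1QB and C1QC. Members were thus chosen by the measured UMI counts of these genes in the same cells, so the levels of those genes are given as a description and with no test.

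Single-cell RNA sequencing (Chromium 3′ chemistry) was done on pig (Sus scrofa) meniscus in 4 libraries: the white zone of the medial meniscus, the white zone of the lateral meniscus, the red zone of the medial meniscus and the red zone of the lateral meniscus. The labels give no treatment, strain, age or animal for any of them, so each combination of zone and meniscus is 1 library and the spread between animals is unknown. All 4 were prepared alike, with the synovium dissected off before a pronase and a collagenase digestion. In the same order the libraries held 14902274, 13719381, 11878284 and 9666319 UMIs, and members carried 41539, 280077, 3608 and 31197 of them.

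The meniscus is a fibrocartilage pad of the knee, with a vascularised, fibrous outer rim (red) and an inner part without vessels that is richer in cartilage matrix (white). WIF1 encodes a secreted protein that binds WNT ligands and keeps them from their receptors. ENPP2 encodes autotaxin, the secreted enzyme that makes the signalling lipid lysophosphatidic acid, and VIT encodes vitrin, a secreted matrix protein with von Willebrand factor A domains.

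Members were found mainly in the white zone of the lateral meniscus. They numbered 25 of 7807 barcodes in medial white (0.320%, 95% exact binomial interval 0.207 to 0.472), 168 of 7382 in lateral white (2.28%, 1.95 to 2.64), 2 of 6823 in medial red (0.0293%, 0.00355 to 0.106) and 16 of 5715 in lateral red (0.280%, 0.160 to 0.454). Lateral white thus held 79.6% of all members, and its interval lay above the other 3. The medial white and lateral red intervals overlapped, so those shares did not differ beyond counting error. Of the matrix cells alone, members made up 0.370% in medial white, 2.52% in lateral white, 0.0467% in medial red and 0.465% in lateral red. With 2 libraries per zone an exact two-sided permutation test cannot give a p below 0.33, and none was made. Intervals here cover counting error only. The plot of shares by library shows this distribution.

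Before the limits on other genes, the gate was reached by 323 barcodes in medial white (4.14%), 665 in lateral white (9.01%), 10 in medial red (0.147%) and 51 in lateral red (0.892%). In barcodes with at least 3 UMIs of the endothelial genes, which stand here for cells of another type, the gate was reached by 3 of 258 in medial white (1.16%), 3 of 155 in lateral white (1.94%), 2 of 880 in medial red (0.227%) and 1 of 734 in lateral red (0.136%). The median depth of these endothelial barcodes was 1505.5, 1108, 1712 and 1279.5 UMIs in the same order. The overall share in medial red was no higher than that in its endothelial barcodes, where it rests on 2 barcodes. ENPP2 was itself seen in 9.32% of the endothelial barcodes of medial red, WIF1 in 0.227% and VIT in 0.568%. These barcodes therefore cannot show whether the medial red share is background. Of the 1049 barcodes that reached the gate, 727 had too many UMIs of CILP, CILP2 and OMD and 467 too much COL2A1, and a barcode could fail on both. The rule therefore keeps a minority of the cells with this RNA.

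ENPP2 was the gate gene seen in the most members. It was detected in 164 of the 211 (77.7%), VIT in 113 (53.6%) and WIF1 in 73 (34.6%). Most members stood at the edge of the rule: the gate sum was 3 in 133 members, 4 in 53 and 5 or more in 25, with a highest sum of 9. ENPP2 with VIT was found in 69 members, ENPP2 alone in 65, WIF1 with VIT in 29, WIF1 with ENPP2 in 19, WIF1 alone in 14, all 3 genes in 11 and VIT alone in 4. A threshold on the sum fixes part of this pattern, since a cell with many UMIs of 1 gate gene needs none of the others. The plot of gate combinations gives the same counts by library.

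**Figure D1:**
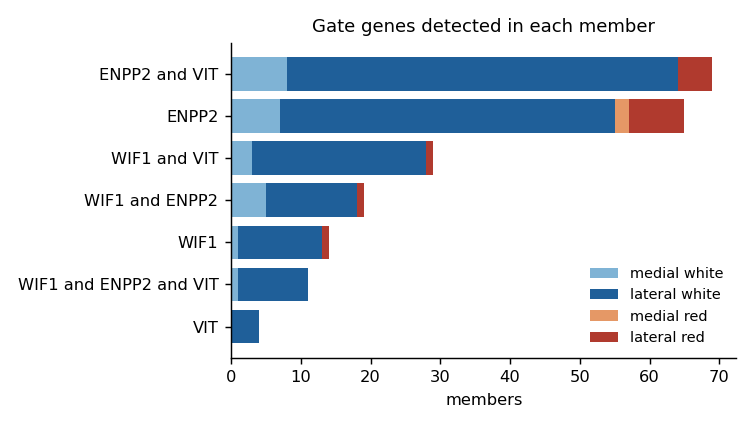
Members by the combination of WIF1, ENPP2 and VIT detected in them, for each library. Bar length is the number of members. ENPP2 with VIT (69) and ENPP2 alone (65) are the most frequent combinations over all libraries, and the 2 medial red members carry ENPP2 alone.

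Gate levels in members were high by construction. WIF1 stood at 481 CPM (UMI sum of the group scaled to a common total) in medial white members against 26.0 CPM in the other matrix cells of that library, at 486 against 64.0 CPM in lateral white, at 0 against 5.55 CPM in medial red and at 288 against 20.2 CPM in lateral red. ENPP2 stood at 1204 against 68.6 CPM in medial white, 1178 against 210 CPM in lateral white, 1940 against 25.4 CPM in medial red and 1154 against 57.3 CPM in lateral red. VIT stood at 385 against 129 CPM, 500 against 133 CPM, 0 against 16.9 CPM and 224 against 38.8 CPM in the same libraries. In the medial red library 1 UMI over both members equals 277 CPM, so its values carry little information.

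The other matrix cells passed the same limits on vascular, mural and macrophage genes and fell into 3 groups. COL2A1 cells (3355) had COL2A1 at 0.5% of UMIs or more, CILP or OMD cells (7871) had at least 3 UMIs over CILP, CILP2 and OMD, and gate-negative cells (9710) met every limit of the members but had at most 2 gate UMIs. The members' median depth was 1663 UMIs in medial white, 1469 in lateral white, 1804 in medial red and 1895.5 in lateral red, against 1185.5, 1235, 1430 and 1438 UMIs in gate-negative cells. Depth thus moved with membership, and its part in the results was not tested except where cells were thinned to a common depth.

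Of the other markers proposed for these cells, SFRP1 and MMP3 were moderately higher in members of both white libraries and ECRG4 was not. SFRP1, a secreted WNT-binding protein, had 265 CPM in medial white members against 181 CPM in other matrix cells (ratio 1.46, 0.730 to 2.62, 95% exact Poisson interval) and 325 against 201 CPM in lateral white (1.62, 1.30 to 2.00). It was at 0 UMIs in medial red members, and at 160 against 97.5 CPM in lateral red (1.64, 0.531 to 3.86). Only the lateral white interval lay above 1. MMP3, a matrix protease, had 770 against 385 CPM in medial white (2.00, 1.37 to 2.83), 1350 against 833 CPM in lateral white (1.62, 1.46 to 1.80), 277 against 361 CPM in medial red on 1 UMI, and 2949 against 911 CPM in lateral red (3.24, 2.60 to 3.98). ECRG4, the precursor of the secreted peptide augurin, had 241 against 243 CPM in medial white, 800 against 882 CPM in lateral white, 277 against 172 CPM in medial red on 1 UMI, and 833 against 266 CPM in lateral red (3.13, 2.04 to 4.61). The levels of ECRG4 were thus alike in members and other matrix cells of the white zone. Its sum was higher in the 16 members of lateral red, where 1 member held 11 of the 26 UMIs. SFRP1 was detected in 72 members, ECRG4 in 116 and MMP3 in 111. All 3 were seen in 21 members and none in 34, and a single lateral white member held up to 37 UMIs of MMP3.

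The name of a superficial, lubricating cell was not borne out by a list of superficial zone and lubrication genes. The 12 of its 14 markers that are analysed here summed to 11531 CPM in medial white members, inside the range of 9682 to 13794 CPM in the other 3 matrix groups, and to 7480 CPM in lateral white members, inside their range of 7159 to 8551 CPM. CLU, an extracellular chaperone, made up most of these sums, with 8594 against 8968 CPM in medial white and 5570 against 6374 CPM in lateral white. CREB5, a transcription factor, was the exception, with 217 CPM on 9 UMIs against 65.8 CPM in medial white and 114 CPM on 32 UMIs against 59.6 CPM in lateral white. CRTAC1 and HAS1 were at 0 UMIs in members of both white libraries, which says little. Other matrix cells held 2.77 CPM of CRTAC1 in medial white and 3.70 CPM in lateral white, and 0.555 and 0.589 CPM of HAS1. A single UMI over the members equals 24.1 CPM in medial white and 3.57 CPM in lateral white. PRG4 and HAS2 were not analysed here. The cells are therefore called by their gate genes.

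Against each of the 3 other matrix groups, members had higher levels of COL14A1, and TNC and GSN were also among the 25 genes with the highest ratios. Only the white libraries had at least 20 members and entered this comparison, which takes a gene as higher when it is at least 2-fold above every other group in both, with 20 CPM added to each value. Of 13908 genes, 2 (0.0144%) were higher by this rule, COL14A1 and the unnamed gene ENSSSCG00000029449, and 2 (0.0144%) were lower, CLEC3A and LTBP2. Since the rule chose the members in these same cells, this is a description and carries no test. The count of higher genes was 8 with lateral white alone and 534 with medial white alone, where the sum rests on 25 cells, and 28 with 5 CPM added.

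COL14A1, a fibril-associated collagen of fibrous tissue, gave the clearest difference. It had 4406 CPM (183 UMIs) in medial white members against 505 CPM in other matrix cells (8.72, 7.48 to 10.1), 3135 CPM (878 UMIs) against 872 CPM in lateral white (3.59, 3.35 to 3.85), 1386 CPM (5 UMIs) against 3643 CPM in medial red and 5353 CPM (167 UMIs) against 3469 CPM in lateral red (1.54, 1.32 to 1.80). It was detected in 20 of 25, 127 of 168, 2 of 2 and 15 of 16 members. COL14A1 was therefore higher in the members of both white libraries. Its summed level was also higher in lateral red, where 1 member held 46 of the 167 UMIs, which the interval does not take into account. The other matrix cells of both red libraries already held levels near those of white members.

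TNC, the matrix glycoprotein tenascin C, had 4044 CPM in medial white members against 1652 CPM (2.45, 2.09 to 2.85), 1464 against 838 CPM in lateral white (1.75, 1.58 to 1.93), 0 UMIs against 754 CPM in medial red and 3045 against 1398 CPM in lateral red (2.18, 1.76 to 2.67). GSN, the actin-severing protein gelsolin, had 1806 against 460 CPM in medial white (3.93, 3.08 to 4.93), 1646 against 732 CPM in lateral white (2.25, 2.04 to 2.47), 1940 against 1967 CPM in medial red and 2628 against 2115 CPM in lateral red (1.24, 0.988 to 1.54). Both genes were higher in the members of the 2 white libraries. The summed level of TNC was higher in lateral red as well, where the interval of GSN included 1. There 1 member held 24 of the 95 UMIs of TNC, which its interval does not take into account. ENSSSCG00000029449, to which the files and the gene tables give no name, had 3563 against 394 CPM in medial white, 5163 against 2035 CPM in lateral white, 1663 against 799 CPM in medial red and 4359 against 618 CPM in lateral red.

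**Figure D2:**
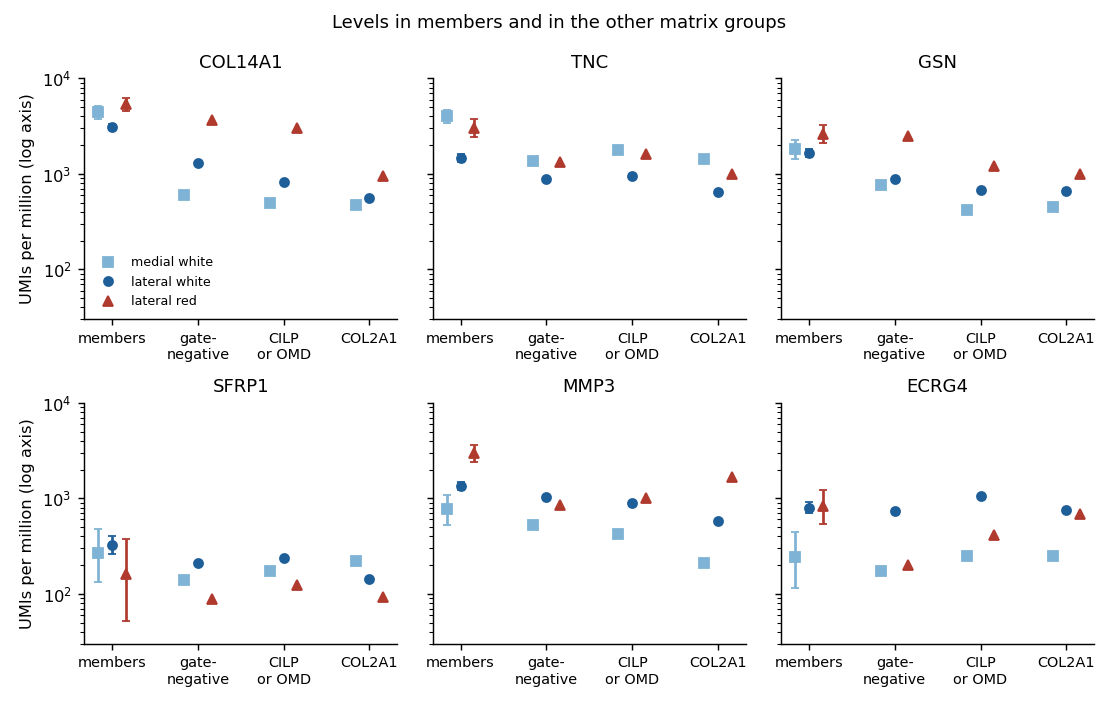
Level in CPM, on a log axis, of 6 genes in members and in the 3 other matrix groups of medial white, lateral white and lateral red; medial red, with 2 members, is left out. Points are UMI sums scaled to CPM and bars are 95% exact Poisson intervals. COL14A1, TNC and GSN lie above all other groups in both white libraries, while ECRG4 lies among them there.

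The remaining named genes were the next in rank, and many rested on few molecules. PCP4, a small calmodulin-binding protein, had 96.3 CPM on 4 UMIs against 7.61 CPM in medial white and 92.8 CPM on 26 UMIs against 24.6 CPM in lateral white (3.77, 2.42 to 5.63). ROBO1, a receptor for SLIT ligands, had 289 against 108 CPM in medial white (2.67, 1.38 to 4.68) and 143 against 70.5 CPM in lateral white (2.03, 1.44 to 2.78). The white ratios are those it was ranked by, so their intervals are a description only. In lateral red ROBO1 had 288 against 115 CPM (2.51, 1.14 to 4.79), on 9 UMIs in 5 members with up to 4 in 1 of them. SDC2, a cell-surface heparan sulphate proteoglycan, had 506 against 129 CPM in medial white (3.91, 2.41 to 5.99) and 129 against 54.7 CPM in lateral white (2.35, 1.63 to 3.29). It did not stand above the other cells in lateral red, at 192 against 225 CPM.

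The growth factor IGF1 had 96.3 CPM on 4 UMIs against 43.6 CPM in medial white, 193 against 84.5 CPM in lateral white (2.28, 1.70 to 3.00) and 385 against 153 CPM in lateral red (2.51, 1.29 to 4.40). HAPLN3, a link protein of hyaluronan-rich matrix, had 120 CPM on 5 UMIs against 55.1 CPM in medial white and 179 against 91.9 CPM in lateral white (1.94, 1.43 to 2.58). IGFBP2, which binds insulin-like growth factors, shows how a sum can rest on few cells: its 44 UMIs in lateral white members came from 4 of 168 cells, and its 58 in lateral red from 6 of 16. MMP23B, ARHGAP5, CDR2L, GIGYF2, MARCHF7, CAND1, ACSF2, EFR3A, EPC1, CSF1, RPAP3, ARHGAP21, GOPC, ISM1 and RBBP7 completed the 25, with 3 to 13 UMIs each in medial white members.

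The genes lowest in members included several of the extracellular matrix. CLEC3A, a lectin of cartilage, had 2 UMIs (48.1 CPM) in medial white members against 439 CPM and 8 UMIs (28.6 CPM) in lateral white against 209 CPM, and LTBP2, which belongs to the family of latent TGF-beta binding proteins, had 0 UMIs against 118 CPM and 4 UMIs (14.3 CPM) against 79.6 CPM. LOX, the enzyme that cross-links collagen and elastin, had 602 against 2674 CPM in medial white (0.225, 0.146 to 0.332) and 707 against 1713 CPM in lateral white (0.413, 0.357 to 0.475). CP, the copper-carrying ceruloplasmin, had 265 against 1052 CPM (0.252, 0.126 to 0.451) and 418 against 921 CPM (0.454, 0.375 to 0.544), and CCDC80, a secreted matrix-associated protein, 313 against 1085 CPM (0.289, 0.154 to 0.494) and 168 against 361 CPM (0.464, 0.341 to 0.619). HSD17B11, SRI, SLC12A2, PLXDC2 and MGST3 completed the 10.

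Lists of genes were counted at 1.5-fold in both white libraries. The genes counted had at least 20 CPM over all barcodes with at least 200 genes in each of them. Against all other matrix cells 67 of 3932 genes (1.7%) were higher and 66 (1.68%) lower, with a median log2 ratio of 0.06 in medial white and 0.10 in lateral white. None of the 8 measured WNT pathway genes was called in either direction. Their median was 0.25 in medial white and 0.18 in lateral white. SFRP1 was the most abundant, and FRZB, another secreted WNT-binding protein, had 1 UMI in medial white members and 118 against 161 CPM in lateral white. Of 4 measured genes for receptors of lysophosphatidic acid and for enzymes that act on it or on related substrates, none was called. LPAR1, a receptor of lysophosphatidic acid, had 120 against 110 CPM in medial white and 107 against 73.4 CPM in lateral white. PLPP3, a phosphatase that breaks it down, had 96.3 against 250 CPM in medial white (0.385, 0.105 to 0.986) and 350 against 230 CPM in lateral white (1.52, 1.23 to 1.86), so that the libraries differed in direction.

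Among 14 measured genes of fibrochondrocytes and leucine-rich proteoglycans, 5 were lower (COMP, DCN, PRELP, ANGPTL7 and LOX) and none higher. The median log2 ratio was -1.32 in medial white and -0.34 in lateral white. Members were limited in CILP, CILP2 and OMD, while the pooled cells include those chosen for these genes. The rule can thus fix part of this difference in advance. COMP, a cartilage oligomeric matrix protein, had 3394 against 17083 CPM in medial white and 5424 against 10272 CPM in lateral white. ANGPTL7, a secreted angiopoietin-like protein, had 0 UMIs in members of all 4 libraries, and 404 CPM in other matrix cells of medial white and 56.2 CPM in those of lateral white. Of 23 fibrous matrix genes, COL14A1, TNC and FBN1 were higher and COL3A1 and THBS1 lower. Of 3 measured genes in a list of lubricant-related mucins and aquaporins, 1 was higher, VCAN, and 0 were lower. The median log2 ratio of that list was 1.60 in medial white and 0.45 in lateral white. VCAN, a large hyaluronan-binding proteoglycan, had 1878 against 258 CPM in medial white (7.27, 5.73 to 9.10) and 471 against 212 CPM in lateral white (2.23, 1.85 to 2.65). Of 17 cartilage matrix genes, HAPLN3 was higher and CLEC3A lower. ACAN, the core proteoglycan of cartilage, had 2359 against 1634 CPM in medial white (1.44, 1.17 to 1.76) and 1796 against 1833 CPM in lateral white (0.980, 0.895 to 1.07).

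Members share their limits on COL2A1, CILP, CILP2 and OMD with gate-negative cells. Against gate-negative cells alone, a comparison added after the data were seen, 51 of 3932 genes (1.3%) were higher and 70 (1.78%) lower. LOX was then the only one of the 14 fibrochondrocyte genes to be lower. The median log2 ratio of that list was 0.02 in medial white and -0.08 in lateral white. Of 23 fibrous matrix genes 4 (COL14A1, COL16A1, TNC and FBN1) were higher and none lower. COL3A1, a main fibrillar collagen, was close in both groups, with 26457 against 24502 CPM in medial white and 13878 against 14602 CPM in lateral white. COL14A1 had 4406 against 601 CPM in medial white (7.33, 6.21 to 8.63), 3135 against 1299 CPM in lateral white (2.41, 2.24 to 2.60) and 5353 against 3696 CPM in lateral red (1.45, 1.24 to 1.69). SPP1, the secreted phosphoprotein osteopontin, had 1565 against 6937 CPM in medial white (0.226, 0.174 to 0.288) and 2885 against 6024 CPM in lateral white (0.479, 0.446 to 0.514). FOS, FOSB and DUSP1 were the genes called lower among 16 immediate-early and heat-shock genes, and CXCL2 and LCN2 among 13 inflammatory genes. Of the 12 measured superficial zone genes CREB5 was again the only one called higher, and none of the WNT or lysophosphatidic acid genes was. VCAN was not called against gate-negative cells. It had 1878 against 492 CPM in medial white (3.82, 2.98 to 4.84) and 471 against 335 CPM in lateral white (1.41, 1.17 to 1.69).

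In lateral white the levels just inside and just outside the threshold were close for most of the genes compared. COL14A1 had 2617 CPM in the 103 members with 3 gate UMIs against 2506 CPM in the 259 gate-negative cells with 2. TNC had 1351 against 1228 CPM, SFRP1 351 against 295 CPM, MMP3 1399 against 1340 CPM and ECRG4 763 against 815 CPM. GSN was the exception at the depth measured, with 1866 CPM (1663 to 2086) against 1381 CPM (1267 to 1502). In the 42 members with 4 gate UMIs it had 1121 CPM (895 to 1386). In medial white COL14A1 had 2797 CPM in the 16 members with 3 gate UMIs against 2274 CPM in the 46 gate-negative cells with 2. TNC had 3058 against 2579 CPM there, and GSN ran the other way with 1342 against 1867 CPM. To remove depth, cells were thinned at random to 1000 UMIs and those with fewer left out. In lateral white COL14A1 was then seen in 31.3% of cells with 0 gate UMIs (n = 1244), 45.5% with 1 (n = 391), 59.5% with 2 (n = 131) and 75.0% with 3 or more (n = 64). In medial white it was seen in 17.4%, 54.5%, 61.9% and 63.6% of 579, 99, 21 and 11 cells. The thinned mean was 1.03, 1.70, 3.02 and 3.28 UMIs of COL14A1 per cell in lateral white, and 0.339, 1.90, 2.38 and 7.09 in medial white. In medial white the largest step in detection was between 0 and 1 gate UMI and the largest step in the mean between 2 and 3 or more, where it rests on 11 cells.

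TNC followed with 40.6%, 52.7%, 61.1% and 76.6% of cells in lateral white and 48.4%, 70.7%, 71.4% and 81.8% in medial white. SFRP1 was seen in 15.8%, 20.5%, 22.9% and 29.7% of the lateral white cells, and ECRG4 in 38.5%, 43.2% and 45.0% of those with 0, 1 and 2 gate UMIs and 32 of the 64 with 3 or more. MMP3 was seen in 31.6%, 37.6%, 48.9% and 46.9%. GSN was seen in 35.1%, 48.6%, 58.0% and 56.3% of the lateral white cells and in 24.0%, 41.4%, 52.4% and 72.7% in medial white. Its thinned mean in lateral white was 1.53 UMIs per cell with 2 gate UMIs and 1.375 with 3 or more. In medial white SFRP1 was seen in 10.0%, 19.2%, 19.0% and 18.2% of cells, MMP3 in 14.5%, 27.3%, 47.6% and 27.3% and ECRG4 in 64 of 579, 12 of 99, 3 of 21 and 2 of 11 cells. COL14A1 and TNC were thus seen more often at each step in both white libraries, though neighbouring intervals often overlapped, as the plot of detection by gate sum shows. SFRP1 did not do so in medial white, GSN did not in lateral white and MMP3 did not in either. The steps of ECRG4 lay within their intervals.

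**Figure D3:**
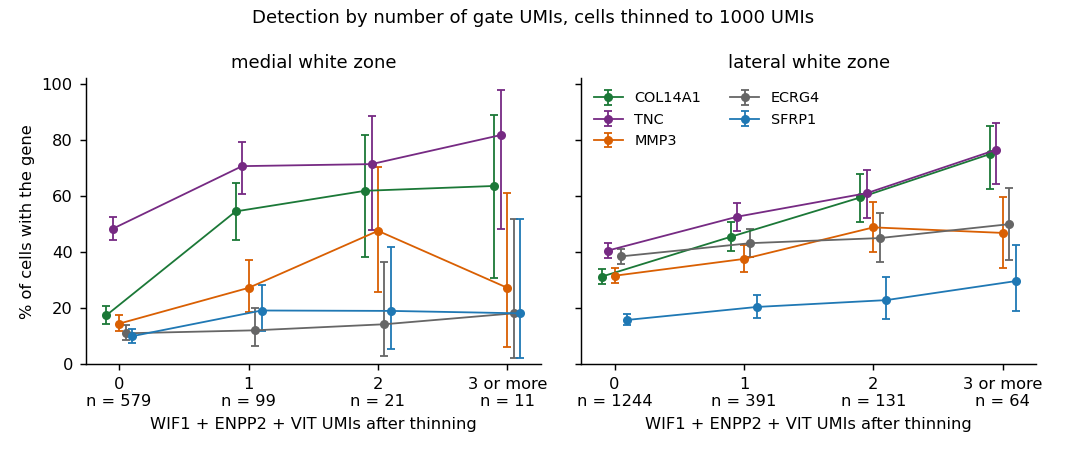
Percent of cells with at least 1 UMI of a gene after thinning to 1000 UMIs, by the number of gate UMIs left after thinning, in members and gate-negative cells of the white libraries. Points are shares and bars 95% exact binomial intervals. COL14A1 and TNC increase with each step in lateral white, with COL14A1 at 31.3% with 0 gate UMIs and 75.0% with 3 or more.

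Members did not form a cluster of their own. All cells were clustered without the genes of the rule, which gave 16 clusters, and members fell into 10 of them, 7 of which held at least 5. The cluster led by SFRP1, MSMP and INHBA held 87 members (41.2%) but 4.44% of all cells, and 7.07% of its cells were members. It was almost a lateral white cluster, with 1108 of its 1230 cells and 81 of its 87 members from that library. Whether it stands for that library or for a type of cell was not tested. A cluster led by LCN2, CHI3L1 and SPP1 held 49 members (23.2%, against 13.7% of cells), one led by CXCL14, LUM and CXCL12 held 19 members (against 9.40% of cells), one led by MYOC, CRABP1 and CPXM2 held 18 (8.53% against 9.36%), and one led by COL9A1, SNORC and COL11A2 held 17 (8.06% against 6.37%). The libraries differed in where their members lay: 81 of 168 lateral white members were in the SFRP1 cluster, 9 of 25 medial white members in the COL9A1 cluster and 9 of 16 lateral red members in the CXCL14 cluster. At a lower resolution of 0.5 members lay in 7 of 11 clusters, and 88 (41.7%) lay in 1 cluster led by INHBA, SFRP1 and ECRG4.

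**Figure D4:**
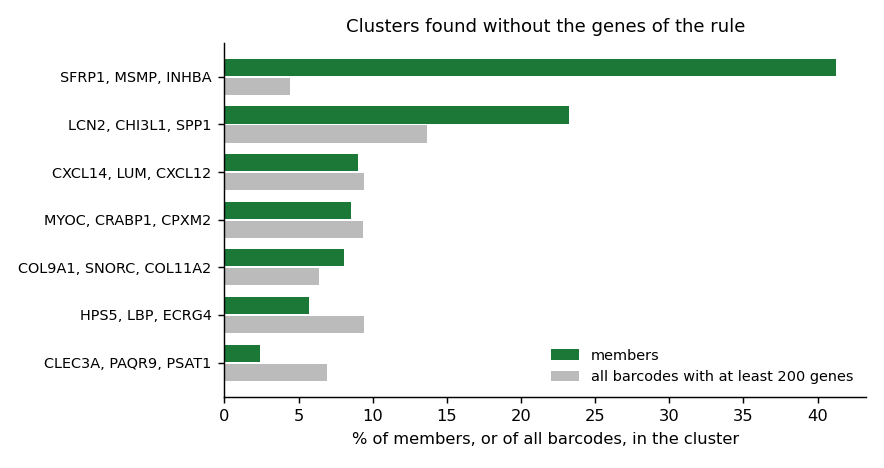
Share of members and share of all cells in each cluster that held at least 5 members, clusters named by their leading genes. The SFRP1, MSMP and INHBA cluster holds 41.2% of members and 4.44% of all cells, and members are spread over the others.

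The COL14A1 ratio differed from cluster to cluster. Within the SFRP1 cluster of lateral white, 81 members had 5417 CPM against 4313 CPM in 557 gate-negative cells (1.26, 1.16 to 1.36), GSN had 2133 against 1682 CPM (1.27, 1.11 to 1.45), and SFRP1 had 541 against 487 CPM (1.11, 0.845 to 1.44). TNC was at 1638 against 1796 CPM (0.912, 0.785 to 1.06) and ECRG4 at 943 against 1184 CPM (0.796, 0.652 to 0.965). The ratios of these 5 genes in this cluster lay between 0.796 and 1.27. Within the LCN2 cluster, 45 members had 566 against 172 CPM of COL14A1 in 1071 gate-negative cells (3.29, 2.32 to 4.56), and within the MYOC cluster 14 members had 1459 against 1961 CPM in 188 (0.744, 0.528 to 1.02). In the COL9A1 cluster of medial white, 9 members had 8080 against 1963 CPM in 104 (4.12, 3.25 to 5.18). In the CXCL14 cluster of lateral red, 9 members had 5566 against 3473 CPM of COL14A1 in 915 (1.60, 1.31 to 1.94), 3137 against 1397 CPM of TNC (2.25, 1.71 to 2.89) and 1113 against 287 CPM of ECRG4 (3.89, 2.41 to 5.96).

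Members with WIF1 and members with ENPP2 differed in lateral white, and they were spread in unlike proportions over the clusters. Over all libraries, the SFRP1 cluster held 27 members with WIF1 alone of the pair and 40 with ENPP2 alone. The LCN2 cluster, which CP also marks, held 1 and 43. COL14A1 is among the leading genes of the SFRP1 cluster, so its contrast moves with the clusters, and their part in it was not tested. In lateral white, 37 members had WIF1 without ENPP2, 104 had ENPP2 without WIF1 and 23 had both. COL14A1 had 7077 CPM in the first against 1666 CPM in the second (4.25, 3.66 to 4.94), PCP4 had 229 against 44.9 CPM (5.11, 2.00 to 14.1), and CP had 98.3 against 555 CPM (0.177, 0.0634 to 0.399). LUM, the small proteoglycan lumican, had 0 UMIs against 28, and TNC had 1327 against 1453 CPM (0.913, 0.703 to 1.18), so TNC did not follow WIF1. In medial white the COL14A1 ratio between 4 and 15 such members was 0.711 (0.397 to 1.20), and in lateral red between 2 and 13 it was 2.09 (1.27 to 3.29).

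The same split was read in the other matrix groups. In gate-negative cells, COL14A1 had 3918 CPM in 23 cells with WIF1 against 1124 CPM in 89 with ENPP2 in medial white (3.49, 2.70 to 4.49), 3918 against 1276 CPM in 119 and 480 cells of lateral white (a ratio of 3.07), 4161 against 4117 CPM in 13 and 128 cells of medial red (1.01, 0.812 to 1.25) and 6618 against 4259 CPM in 25 and 187 cells of lateral red (1.55, 1.37 to 1.75). In CILP or OMD cells the ratio was 2.37 (2.04 to 2.75) in medial white, 1.88 (1.69 to 2.10) in lateral white, 0.923 (0.709 to 1.19) in medial red and 0.806 (0.693 to 0.934) in lateral red. In COL2A1 cells it was 1.38 (1.15 to 1.65) in medial white, 1.66 (1.45 to 1.90) in lateral white and 1.80 (0.868 to 4.00) in lateral red. Outside the members COL14A1 was thus higher with WIF1 in all 3 groups of both white libraries, while in lateral red the gate-negative and the CILP or OMD cells ran opposite ways.

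Between the white libraries, medial members differed from lateral members in part as the surrounding cells did. COL14A1 was higher in medial members, by a ratio of 1.41 (1.19 to 1.65), whereas in other matrix cells the medial over lateral ratio was 0.579. TNC had a ratio of 2.76 (2.29 to 3.31) in members and 1.97 in other matrix cells, and SDC2 one of 3.93 (2.18 to 6.92) and 2.37. The SDC2 sums of members rest on few cells, which its interval does not take into account. ECRG4 was lower in medial members at 0.301 (0.142 to 0.564), close to the 0.275 of other matrix cells, and MMP3 at 0.571 (0.385 to 0.820) and 0.462. WIF1 and ENPP2 had ratios of 0.992 and 1.02 in members, which the gate holds level.

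The red libraries held too few members for a test of zone or meniscus within members, and values alone are given. Between zones, the largest differences on the higher side were in ACAN, HAPLN1, PXYLP1, THBS4 and DDR2. ACAN had 98 UMIs (2359 CPM) in medial white members, 503 UMIs (1796 CPM) in lateral white, 0 UMIs in medial red and 3 UMIs (96.2 CPM) in lateral red, and HAPLN1, which links aggrecan to hyaluronan, 1950, 1635, 0 and 288 CPM. The white libraries lay above the red ones in both genes, and they did so in all other barcodes too, with 1641, 1789, 198 and 238 CPM of ACAN and 1131, 1522, 88.7 and 210 CPM of HAPLN1 in the same order. On the lower side stood C4A, HBEGF, CXCL12, VCAM1 and C1QTNF6. CXCL12, a chemokine of stromal cells, had 96.3, 14.3, 1109 and 673 CPM in members and 8.01, 10.0, 395 and 264 CPM in all other barcodes, in the same order of libraries. Between menisci the largest differences were in NTN4, TIMM50, DKC1, APOE and HACD3 on the higher side and SOD2, IGFBP2, ANXA1, TUBB2B and EBF1 on the lower side. SOD2, the mitochondrial superoxide dismutase, had 819 CPM in medial white against 2503 CPM in lateral white and 0 UMIs in medial red against 1442 CPM in lateral red. In all other barcodes it had 1234 against 2471 CPM in the white zone and 503 against 712 CPM in the red zone. All of these lean on the 3608 UMIs of the medial red members.

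Whether the members' differences between libraries departed from those of other matrix cells was tested with edgeR's quasi-likelihood test on sums per library, as an interaction with Benjamini-Hochberg adjustment over 10240 genes. On simulated data of this depth the test recovered few of the changes put in, so a count of 0 says little. For white over red, 0 genes (0%) passed an adjusted p of 0.05, 43 had an unadjusted p under 0.05, and DESeq2 called 0. For medial over lateral, 0 (0%) passed, 26 had an unadjusted p under 0.05, and DESeq2 called 0. The medial red sum rests on 2 members. Its TMM scaling factor for the medial red members was 4.19, and the median log2 interaction over all genes was 1.57 for the zone and -0.82 for the meniscus, against 1.03 and -0.31 with library totals alone.

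Endothelial and mural marker sums were small in members, which the rule fixed in part. It limits PECAM1, PLVAP, VWF, ACTA2, MYH11, RGS5 and the C1Q genes, which are among the endothelial, mural and myeloid markers counted here. The 8 endothelial markers summed to 72.2 CPM in medial white members, 21.4 CPM in lateral white, and 0 in medial red and lateral red. In each white library 6 of 8 were at 0. The medial white sum, on 3 UMIs, lay above the 8.02 to 25.1 CPM of the other matrix groups. The 8 mural markers summed to 72.2, 82.1, 0 and 449 CPM, and gate-negative cells of lateral red held 454 CPM. Mast cell, erythroid and skeletal muscle markers were at 0 in all members, and the T or NK cell list had 1 UMI, in medial red. The myeloid list summed to 2431 CPM in medial white members and 2853 CPM in lateral white, against 1708 to 2665 CPM and 2166 to 2559 CPM in the other matrix groups, with 7 and 6 of its 8 markers at 0. In lateral white members it thus lay above all 3 other groups, and 798 of its 799 UMIs there were CD74, the invariant chain of MHC class II, with 74 of the 168 members holding 5 or more. ERBB3, a neuregulin receptor that marks Schwann cells among other types, had 939 against 808 CPM in medial white and 753 against 676 CPM in lateral white. In medial red, 1 of the 2 members had 40 UMIs of CD74, 15 of HLA-DRA and 1 of PTPRC among 2814, while the other had 40 UMIs of COL1A1 and 31 of COL3A1 among 794. Of gate-negative cells, 1.69% in medial white, 2.06% in lateral white, 16.3% in medial red and 29.1% in lateral red lay in clusters led by vascular or immune genes, and their part in the red zone values was not tested. Pairs of libraries shared 10 to 20 barcodes, of which 1 was a member.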

How the data were processed

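Single cells of 4 libraries were analysed from UMI counts per gene and barcode that the authors deposited. The counts were made with Cell Ranger 6.1.2 on the Sscrofa11.1 build, per the submitters' processing notes. Of 21280 features 14811 carried a symbol in the files, 688 took one from a table of gene names and 5781 kept an identifier alone. No further filter was applied to barcodes than the rule of the members. Scrublet called 0 or 1 barcode per library and 0 members, so it did not work here, and no doublets were removed.

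UMIs were summed per library and group. Ratios of CPM have exact 95% Poisson intervals. Cells were clustered with scanpy 1.11.5 (Python 3.11.15, 2000 variable genes, 30 components, 15 neighbours). For the interactions, edgeR 4.0.16 in R 4.3.3 was used on genes passing filterByExpr, with TMM scaling and the library as block, and DESeq2 1.42.0 beside it. The edgeR test was tried on simulated data of this depth and recovered few of the changes put in, so a count of 0 calls says little. The members, gene lists and tests were chosen with earlier results of these data known. Named genes are the 25 highest with at least 50 CPM in members of both white libraries, ranked by the smallest ratio to any other matrix group with 20 CPM added, the 10 lowest, and the genes of the rule. For the zone and the meniscus they are the 5 largest differences per direction that ran the same way in both pairs of libraries. Members also had to be at least level with all other barcodes in both libraries of the higher side. Zone and meniscus tests within members were not made, because both red libraries held under 20 members. Some marker genes of a further cell type are not reported here.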

Additional observations from a re-analysis of the deposited data

How the results depend on the processing

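Shares of members followed the threshold. With a gate sum of at least 2 they were 0.909% in medial white, 5.78% in lateral white, 0.381% in medial red and 1.05% in lateral red, and with at least 5 they were 0.0128%, 0.312%, 0% and 0.0175%. Thinning to 1000 UMIs gave 1.37% in lateral white and 0% in medial red, and a COL2A1 limit of 0.1% gave 0.205% in medial white and 1.504% in lateral white. Lateral white had the highest share under every one of these settings. Filters on UMIs and mitochondrial reads and the removal of the highest doublet scores moved no share beyond its interval. The count of 2 genes at least 2-fold higher was 28 with 5 CPM added, 1 with 50 CPM added, 596 with a gate of at least 5 and 35 after thinning (both with lateral white alone), and 8 to 534 when either white library was left out. With a gate of at least 2 lateral red also entered and the count was 1, ENSSSCG00000029449, so that COL14A1 was lost; with gate-negative cells outside vascular or immune clusters it was 1, COL14A1. Both were chosen after seeing the data. The meniscus interaction called 8 genes with library totals alone and 4 with no replicate block. Without the medial red member that carries immune RNA (added after seeing the data) it called 0 with TMM and 8 with library totals alone, but VCAM1 was the 1 gene shared with the first 8. Of those first 8, CXCL9, HLA-DRA, SLA-DQB1 and CCL19 had all their medial red UMIs in that member, and APOE all but 1 of its 52. The zone interaction called 0 with and without the block and under every alternative. The cause of these changes was not tested. Other scalings, tools, filters and left-out libraries for zone and meniscus within members were not run, since those tests were not made. Depth limits the medial red values most, where 1 UMI equals 277 CPM.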
